A study of Homo sapiens with 6 samples.

Results

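The 10 mitochondrial biogenesis regulators PPARGC1A, PPARGC1B, ESRRA, NRF1, TFAM, TFB2M, POLG, POLG2, POLRMT and TWNK were taken by symbol from a table of 58299 gene IDs, and 10 of 10 were found. They were followed in AC16 cells treated for 48 h with 100 nM doxorubicin (3 libraries) or with the vehicle, 0.1% DMSO (3 libraries). AC16 is an immortal human line made by fusing adult ventricular cells with SV40-transformed fibroblasts that lacked mitochondrial DNA, and doxorubicin is an anthracycline that traps type II topoisomerases on DNA. Poly(A) RNA was sequenced without strand information, and total counts per library ranged from 17252862 to 19571731. Nothing in the labels ties the 3 libraries of a treatment to independent cultures. The p-values therefore reflect library-to-library spread, part of which may be technical.

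Mitochondrial biogenesis is controlled from the nucleus. The coactivators PGC-1alpha and PGC-1beta (PPARGC1A, PPARGC1B) bind no DNA themselves and act through factors such as the estrogen-related receptor ERRalpha (ESRRA) and nuclear respiratory factor 1 (NRF1). These switch on nuclear genes for respiration and the machinery of mitochondrial DNA: the packaging and transcription factor TFAM, the initiation factor TFB2M, the RNA polymerase POLRMT, the DNA polymerase gamma (POLG with its accessory subunit POLG2) and the replicative helicase Twinkle (TWNK). NRF1 here is nuclear respiratory factor 1 and is unrelated to NFE2L1, which shares its abbreviation, and to the antioxidant factor NRF2 of the series title. Genes encoded on the mitochondrial chromosome were not analysed here.

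The regulators did not move as one. PPARGC1A rose 5.50-fold at a very low level, ESRRA rose 1.37-fold and TFAM rose 1.21-fold in doxorubicin cells, while NRF1 fell 2.01-fold, POLG fell 1.52-fold and POLRMT fell 1.41-fold. PPARGC1B, TFB2M, POLG2 and TWNK were not called. So 3 of 10 were higher, 3 lower and 4 not called, a call being an adjusted p below 0.05 over all 15358 tested genes (edgeR quasi-likelihood). Of all tested genes, 64.7% were called, 32.7% as higher and 32.0% as lower, so the share called among the regulators was near the background. PPARGC1A, counted among the 3 higher, entered the test through its doxorubicin libraries only. The 6 called regulators were also those whose 3 doxorubicin libraries did not overlap the 3 DMSO libraries, against 69.1% of tested genes without overlap. The median log2 fold change was 0.10 over the 10 regulators and -0.0013 over all tested genes, and the median absolute log2 fold change was 0.36 over the regulators and 0.46 over all tested genes. Scaling makes these changes relative to the other genes, and in bulk RNA fewer cells of a kind and less RNA per cell cannot be told apart.

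All 10 regulators passed the filter on low counts, which asked for at least 0.548 CPM (counts scaled to library size) in 3 libraries. All but PPARGC1A did so in all 6 libraries. PPARGC1A passed through its doxorubicin libraries only (3 of 3, and 0 of 3 DMSO libraries), so it had to differ to be tested.

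Sequences of the promoters are shown because NRF1 is itself one of the genes that changed and binds a known motif. Windows of 250 bases before to 50 bases after the RefSeq start (GRCh38.p14) were found for 8 of the 10 genes, and the windows of the 3 genes that changed and held the NRF1 consensus follow, read 5′ to 3′ along the gene. Capitals mark matches on either strand to the NRF1 consensus, a palindrome-like run of 10 letters with any base at the fifth, to its core TGCGCATG, which can overlap it, and to the ETS motif CCGGAAGT of the GABP factor.
TFAM, chr10:58385160-58385459, plus strand: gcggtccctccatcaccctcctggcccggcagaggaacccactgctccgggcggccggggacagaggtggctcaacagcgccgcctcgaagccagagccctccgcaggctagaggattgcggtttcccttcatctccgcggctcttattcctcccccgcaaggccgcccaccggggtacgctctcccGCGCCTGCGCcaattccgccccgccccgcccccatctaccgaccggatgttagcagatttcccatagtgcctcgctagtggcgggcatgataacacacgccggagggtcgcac
ESRRA, chr11:64305274-64305573, plus strand: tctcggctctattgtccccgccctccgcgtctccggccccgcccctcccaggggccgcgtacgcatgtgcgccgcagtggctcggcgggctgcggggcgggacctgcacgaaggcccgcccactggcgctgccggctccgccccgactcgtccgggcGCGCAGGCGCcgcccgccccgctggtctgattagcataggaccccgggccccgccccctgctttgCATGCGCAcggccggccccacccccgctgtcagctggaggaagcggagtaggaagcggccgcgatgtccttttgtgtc
POLRMT, chr19:633488-633787, minus strand: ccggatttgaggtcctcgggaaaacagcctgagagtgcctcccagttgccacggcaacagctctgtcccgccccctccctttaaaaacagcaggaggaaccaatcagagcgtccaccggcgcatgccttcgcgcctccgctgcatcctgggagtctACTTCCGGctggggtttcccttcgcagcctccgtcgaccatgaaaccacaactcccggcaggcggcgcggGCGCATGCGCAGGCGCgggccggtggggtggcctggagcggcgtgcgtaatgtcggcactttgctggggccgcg
The NRF1 consensus was present in 4 of the 8 windows (TFAM, ESRRA, POLG2 and POLRMT) and in 5.75% of 34796 distinct promoter windows. Its first base lay 63 bases before the start in TFAM, 93 in ESRRA, 14 in POLG2 and 24 in POLRMT, where a second, overlapping match began 18 bases before the start. The core TGCGCATG was present in TFB2M, ESRRA and POLRMT and in 2.15% of windows, and its first base in TFB2M lay 14 bases before the start. The ETS motif was present in POLRMT and in 4.13% of windows, and the ERR motif TCAAGGTCA was in none of the 8 and in 0.353% of windows. Of the 4 genes with the consensus, TFAM and ESRRA were called higher, POLRMT was called lower and POLG2 was not called. The windows of PPARGC1A (chr4:24472856-24473155) and PPARGC1B (chr5:149771690-149771989) are counted among the 8 but lie far from the start of the gene model counted here, the first outside it and the second within it, and neither held a match. Leaving them aside, the NRF1 consensus was in 4 of 6 windows. The 34796 windows include those of genes not tested here, and their median GC content was 58.7%. The 4 windows with the consensus ranged from 60.7% to 75% GC. Among tested genes with a window, 1290 held the consensus and 9913 did not, a larger share than over all windows. A match is a run of letters and not a measured binding site.

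The coactivators were scarce. PPARGC1A (chr4:23755041-23904089, GRCh38, minus strand), which encodes PGC-1alpha, had 19, 25 and 12 counts in doxorubicin libraries 1 to 3, against 4, 4 and 2 counts in DMSO libraries 1 to 3. Scaled by TMM these were 1.08, 1.32 and 0.672 CPM in doxorubicin cells and 0.224, 0.208 and 0.111 CPM in DMSO cells. Every doxorubicin library lay above every DMSO library, but all values rest on few reads. The log2 fold change was 2.46 ± 0.47 (SE), with an adjusted p of 0.00023 (edgeR). PPARGC1A reached this test through its doxorubicin libraries only, so the p-value was not taken as support for the rise. The 56 summed doxorubicin counts against 10 summed DMSO counts gave a ratio of 5.68 with an exact 95% counting interval of 2.87 to 12.5, which covers counting error only. The ratio and its interval come from the same selected counts, so they were not taken as support either.

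PPARGC1B (chr5:149730298-149855022, plus strand), which encodes PGC-1beta, had 3.92, 3.69 and 3.47 CPM in doxorubicin cells, against 4.02, 2.55 and 2.71 CPM in DMSO cells. DMSO library 1 was the highest of the 6, so the groups overlapped. The log2 fold change of 0.26 ± 0.21 (SE) was not called (adjusted p = 0.29, edgeR), and 2 SE on either side spanned -0.16 to 0.67. The third family member, PPRC1 (PGC-1-related coactivator), was by far the most abundant of the family per exon length. It made up 97.5% ± 0.222 of the family's counts per kilobase in doxorubicin cells and 98.7% ± 0.423 in DMSO cells (SD, n = 3 each). PPRC1 was called lower, with a log2 fold change of -0.39 ± 0.07 (SE) and an adjusted p of 0.00012 (edgeR). PPARGC1A made up 0.612% ± 0.190 of the same sum in doxorubicin cells and 0.0855% ± 0.0336 in DMSO cells.

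The transcription factors on which these coactivators act moved in opposite directions. NRF1 (chr7:129611714-129757082, plus strand), an activator of respiratory chain and TFAM promoters, had 12.9, 10.7 and 10.7 CPM in doxorubicin cells, against 22.9, 23.6 and 22.6 CPM in DMSO cells. The groups were wide apart, and NRF1 was the lowest of the 10 by fold change. It fell by 1.01 ± 0.10 (SE) on the log2 scale, with an adjusted p of 3.0e-07 (edgeR).

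ESRRA (chr11:64305572-64316743, plus strand), the orphan receptor that binds and is induced by PGC-1alpha, had 65.3, 44.9 and 48.4 CPM in doxorubicin cells, against 35.9, 39.9 and 40.2 CPM in DMSO cells. Doxorubicin library 1 stood well above the other two, which lay just above the DMSO range. The log2 fold change was 0.45 ± 0.13 (SE; adjusted p = 0.0085, edgeR). Without doxorubicin library 1 it was 0.27, with an adjusted p of 0.0081. Of the exon bases of ESRRA, 9.37% lie in exons of TRMT112 on the opposite strand. TRMT112 fell, with 77.6 ± 7.14 CPM in doxorubicin cells and 107.5 ± 8.64 CPM in DMSO cells (SD, n = 3 each; adjusted p = 6.4e-05, edgeR). Its part in the ESRRA value was not tested.

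**Figure D1:**
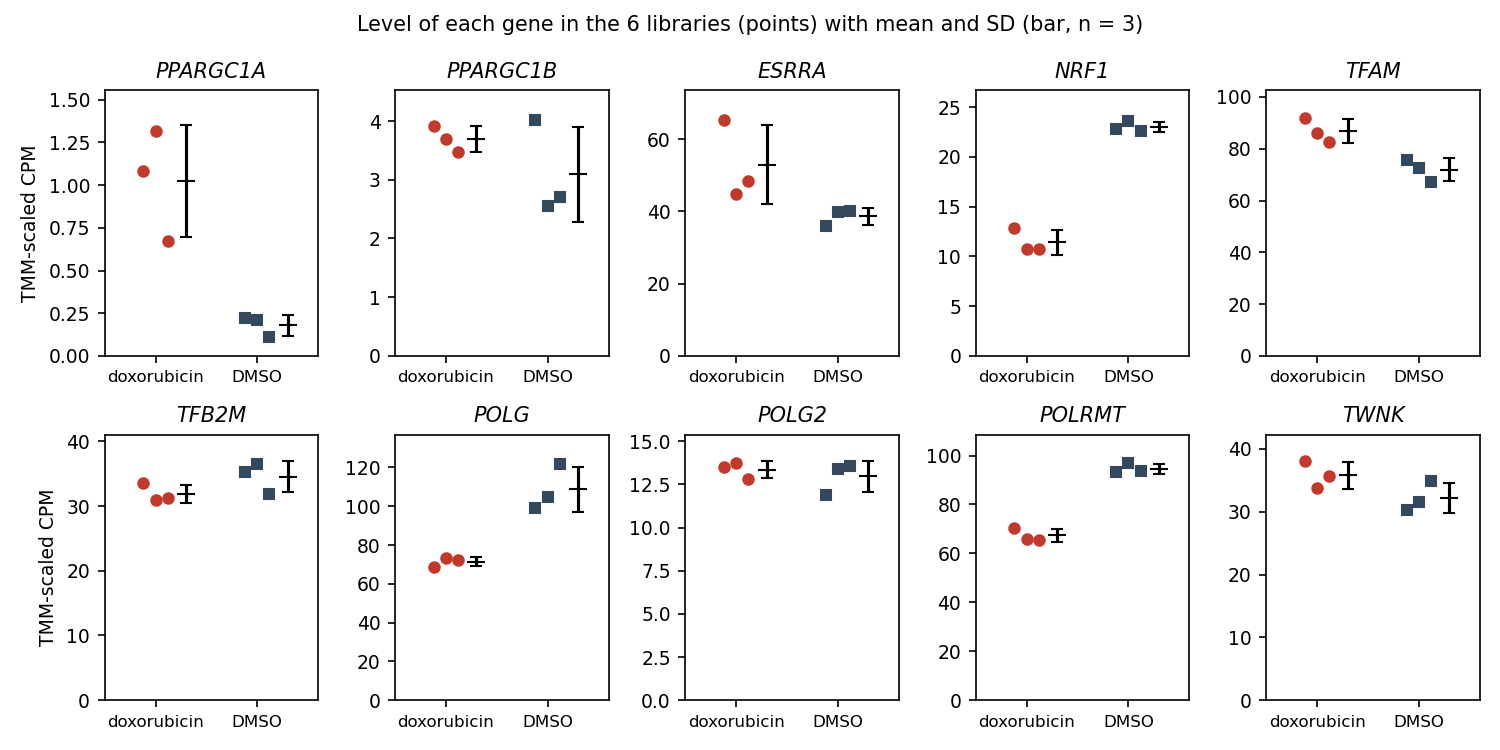
TMM-scaled CPM of the 10 genes in each library (vertical axes start at 0), with doxorubicin as red circles, DMSO as dark squares, and the mean and SD of 3 libraries as black bars. NRF1, POLG and POLRMT lie lower in doxorubicin cells without overlap, PPARGC1A, ESRRA and TFAM lie higher without overlap, and the other 4 overlap.

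Among the transcription factors and polymerase of the mitochondrial genome, the packaging factor and the polymerase moved apart. TFAM (chr10:58385022-58399221, plus strand), which coats and bends mitochondrial DNA and opens its promoters, had 91.9, 86.1 and 82.8 CPM in doxorubicin cells, against 75.8, 72.7 and 67.0 CPM in DMSO cells. All doxorubicin libraries lay above all DMSO libraries by a small margin. The log2 fold change was 0.28 ± 0.07 (SE), with an adjusted p of 0.0025 (edgeR).

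POLRMT (chr19:617224-633604, minus strand), the single-subunit polymerase that transcribes mitochondrial DNA and makes its replication primers, had 70.4, 66.1 and 65.5 CPM in doxorubicin cells, against 93.4, 97.0 and 93.5 CPM in DMSO cells. The libraries within each group lay close together and the groups far apart. The gene fell by 0.49 ± 0.06 (SE) on the log2 scale, with an adjusted p of 4.3e-06 (edgeR).

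TFB2M (chr1:246540560-246566324, minus strand), which joins POLRMT to melt the promoter, had 33.5, 31.0 and 31.2 CPM in doxorubicin cells, against 35.2, 36.6 and 31.9 CPM in DMSO cells. The groups overlapped, and the log2 fold change of -0.12 ± 0.08 (SE) was not called (adjusted p = 0.23, edgeR; 2 SE spanned -0.28 to 0.05). The ratio of TFB2M to POLRMT, in counts per kilobase of exon, does not depend on library scaling. It was 1.32, 1.30 and 1.32 in doxorubicin libraries and 1.05, 1.05 and 0.945 in DMSO libraries. The ratio was 1.30-fold higher in doxorubicin cells and the groups did not overlap, with a two-sided exact permutation p of 0.1, the smallest that 3 libraries against 3 can give.

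Among the 3 genes of the replication machinery, only the catalytic polymerase subunit was called. POLG (chr15:89305198-89334861, minus strand) had 68.9, 73.2 and 72.4 CPM in doxorubicin cells, against 99.4, 104.9 and 122 CPM in DMSO cells. The DMSO libraries were more spread, but the lowest of them was above every doxorubicin library. The gene fell by 0.60 ± 0.08 (SE) on the log2 scale, with an adjusted p of 3.3e-06 (edgeR). Of its exon bases, 7.66% lie in exons of FANCI on the opposite strand. FANCI fell by 0.32 on the log2 scale, with 108.9 ± 1.14 CPM in doxorubicin cells and 136 ± 3.86 CPM in DMSO cells (SD, n = 3 each). Its part in the POLG value was not tested.

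POLG2 (chr17:64477785-64497036, minus strand), the accessory subunit that holds the polymerase on its template, had 13.5, 13.7 and 12.8 CPM in doxorubicin cells, against 11.9, 13.4 and 13.6 CPM in DMSO cells. The groups overlapped widely, with a log2 fold change of 0.04 ± 0.11 (SE; adjusted p = 0.74, edgeR; 2 SE spanned -0.17 to 0.26). Per kilobase, POLG2 stood at 0.346, 0.331 and 0.313 of POLG in doxorubicin libraries and at 0.211, 0.225 and 0.197 in DMSO libraries. This ratio of accessory to catalytic subunit was 1.56-fold higher in doxorubicin cells without overlap (two-sided exact permutation p = 0.1, the smallest possible). These are RNA ratios and not protein stoichiometries.

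TWNK (chr10:100987367-100994401, plus strand), the helicase that unwinds mitochondrial DNA ahead of POLG, had 38.0, 33.7 and 35.7 CPM in doxorubicin cells, against 30.3, 31.5 and 34.9 CPM in DMSO cells. DMSO library 3 lay within the doxorubicin range. The log2 fold change of 0.15 ± 0.08 (SE) was not called (adjusted p = 0.13, edgeR; 2 SE spanned -0.02 to 0.32). Of its exon bases, 3.60% are shared with MRPL43 on the opposite strand, which fell by 0.70 on the log2 scale, and the part of MRPL43 in the TWNK value was not tested.

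**Figure D2:**
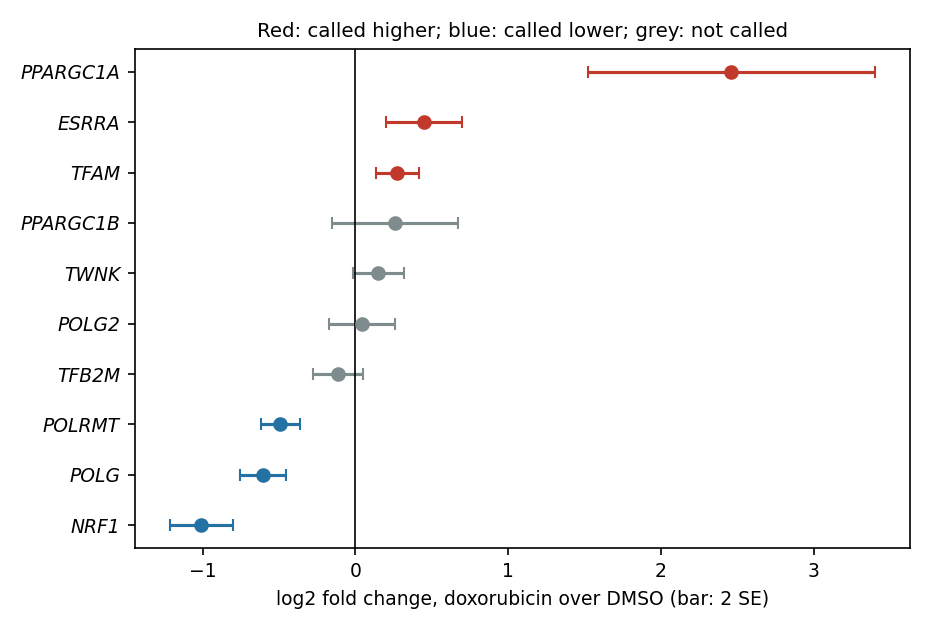
Log2 fold change of doxorubicin over DMSO (horizontal axis) for each gene, with bars of 2 SE from the edgeR fit. The genes run from PPARGC1A at 2.46, with the widest bar, down to NRF1 at -1.01, and the bars of PPARGC1B, TWNK, POLG2 and TFB2M cross 0.

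**Figure D3:**
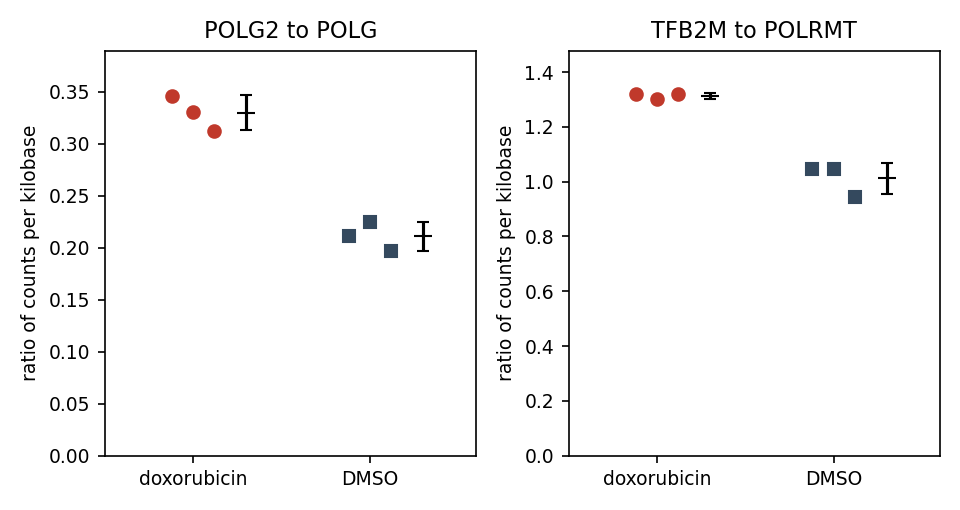
Ratio of counts per kilobase of exon for POLG2 to POLG and for TFB2M to POLRMT in each library, with mean and SD (n = 3). Both ratios are higher in every doxorubicin library than in any DMSO library, with means of 0.330 and 0.211 for POLG2 to POLG and 1.31 and 1.01 for TFB2M to POLRMT in doxorubicin and DMSO cells.

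Levels between genes were compared as scaled CPM per kilobase of exon. In doxorubicin cells ESRRA was highest (17.4 ± 3.60), followed by TFB2M (17.3 ± 0.767), TFAM (15.5 ± 0.828), POLRMT (13.1 ± 0.521), POLG (11.96 ± 0.382), TWNK (8.66 ± 0.520), POLG2 (3.94 ± 0.140), NRF1 (2.78 ± 0.304), PPARGC1B (0.287 ± 0.0175) and PPARGC1A (0.0942 ± 0.0301; SD, n = 3 each). The range of ESRRA overlapped those of TFB2M and TFAM, and no other neighbours overlapped. In DMSO cells the order was TFB2M (18.7 ± 1.31), POLRMT (18.5 ± 0.400), POLG (18.2 ± 1.95), TFAM (12.8 ± 0.795), ESRRA (12.8 ± 0.785), TWNK (7.80 ± 0.579), NRF1 (5.58 ± 0.120), POLG2 (3.82 ± 0.271), PPARGC1B (0.240 ± 0.0628) and PPARGC1A (0.0166 ± 0.00565). There TFB2M, POLRMT and POLG overlapped as neighbours, as did TFAM and ESRRA. The order thus differed between the groups: POLRMT and POLG stood above TFAM in DMSO cells and below it in doxorubicin cells, and NRF1 stood above POLG2 in DMSO cells and below it in doxorubicin cells. In both groups the coactivators were lowest.

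**Figure D4:**
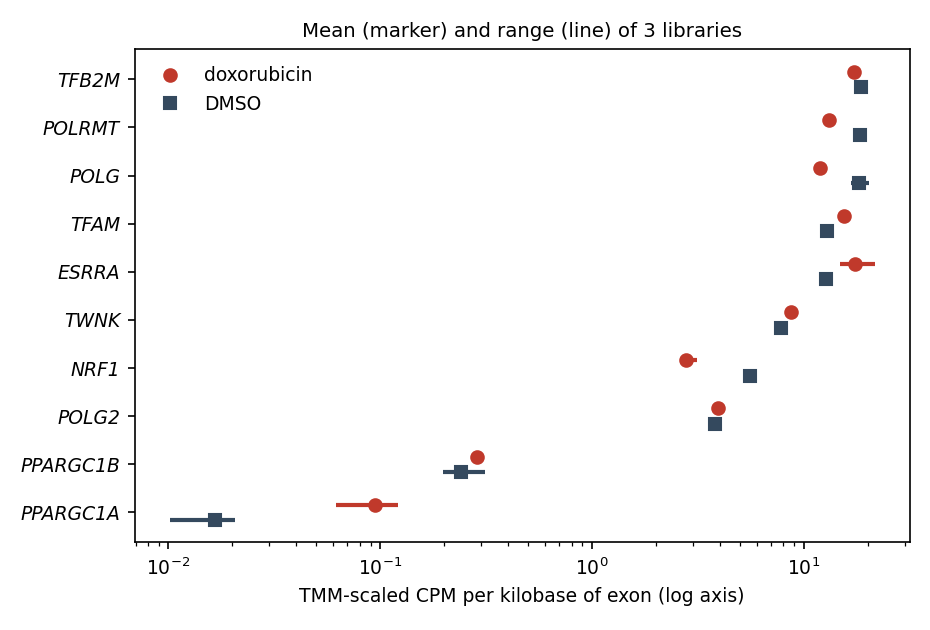
Scaled CPM per kilobase of exon (log axis) of each gene, with the mean (red circles for doxorubicin, dark squares for DMSO) and the range of 3 libraries as a line. PPARGC1A and PPARGC1B lie far below the other 8 genes in both groups, and TFAM and ESRRA lie above POLG and POLRMT only in doxorubicin cells.

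AC16 cells showed little of a cardiomyocyte in these libraries. The summed level of 10 cardiomyocyte markers was 1.06 to 1.88 CPM in doxorubicin libraries and 0 to 0.276 CPM in DMSO libraries, and MYH6, MYH7, MYL2, MYL7, RYR2 and NKX2-5 had 0 counts in all DMSO libraries. None of the 10 passed the filter. The 10 fibroblast markers summed to 5536 to 8191 CPM in doxorubicin libraries and 15830 to 18120 CPM in DMSO libraries, and 7 of them were called lower and 0 higher. A large part of each sum was a single gene, the highest having a mean of 3156 CPM in doxorubicin and 9864 CPM in DMSO cells. The markers of endothelial cells (5 genes, 9.43 to 11.2 CPM in doxorubicin and 14.4 to 16.5 CPM in DMSO libraries; 1 called higher, 1 lower) and of leukocytes (5 genes, 2.90 to 4.14 and 1.96 to 2.65 CPM; 0 called, with PTPRC and CD14 tested) were low. Most of the endothelial sum was a single gene, the highest having a mean of 7.12 CPM in doxorubicin and 14.0 CPM in DMSO cells. The endothelial marker CDH5 and the leukocyte marker CD3E had 0 counts in DMSO libraries. The part of these marker changes in the values of the 10 regulators was not tested.

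The other genes of the pathway were read from 6 gene groups. Counts below are calls in the same edgeR fit over all tested genes, of which 32.7% were higher and 32.0% lower.

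Partners and upstream regulators of PGC-1 were mixed: of 21 tested from 23, 5 were higher, 10 lower and 6 not called, with a median log2 fold change of -0.07. PERM1, a muscle regulator induced by PGC-1 and ERR, was at 4.26 ± 0.645 CPM in doxorubicin cells and 0.738 ± 0.190 CPM in DMSO cells, 5.69-fold higher (SD, n = 3 each; adjusted p = 3.1e-07, edgeR), with 4.50% of its exon bases in exons of the opposite-strand gene PLEKHN1. PRKAB1, the beta-1 subunit of the energy sensor AMPK, was at 133 ± 14.0 CPM in doxorubicin cells and 46.9 ± 1.42 CPM in DMSO cells (adjusted p = 7.2e-11, edgeR). PRKAB2, another beta subunit, rose 1.54-fold, and the lysosomal regulator gene TFEB rose 1.56-fold. In the other direction, HCFC1, a coregulator that binds PGC-1 proteins, fell to 164 ± 8.35 CPM in doxorubicin cells, against 321 ± 12.7 CPM in DMSO cells (adjusted p = 1.3e-09, edgeR). PPARG, a lipid-sensing receptor on which PGC-1alpha was first found in mice, fell 2.12-fold at a low level. It was at 1.27 ± 0.0749 CPM in doxorubicin cells and 2.695 ± 0.468 CPM in DMSO cells. The AMPK catalytic genes PRKAA1 and PRKAA2 fell 1.43-fold and 1.46-fold, so catalytic and beta subunits of AMPK moved apart. SIRT1, a deacetylase of PGC-1alpha, fell 1.38-fold, and GABPB1, a subunit of the GABP factor, fell 1.34-fold. Its partner GABPA was at 51.0 ± 3.00 CPM in doxorubicin cells and 51.0 ± 2.19 CPM in DMSO cells and was not called (adjusted p = 1.00, edgeR).

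Genes for the replication and upkeep of mitochondrial DNA were more often lower: 12 of 19 fell, 4 rose (MGME1, TOP3A, MPV17 and LONP1) and 3 were not called, with a median log2 fold change of -0.29. ENDOG, a mitochondrial nuclease, fell 2.09-fold, with 7.86 ± 1.63 CPM in doxorubicin cells and 16.4 ± 0.699 CPM in DMSO cells (adjusted p = 3.6e-06, edgeR). Of its exon bases, 39.2% lie in exons of other genes, mostly SPOUT1 on the opposite strand. UNG, the uracil glycosylase of nucleus and mitochondria, fell 1.91-fold, with 50.8 ± 2.56 CPM in doxorubicin cells and 97.0 ± 1.18 CPM in DMSO cells (adjusted p = 3.4e-09, edgeR). SSBP1, the mitochondrial single-strand binding protein that works with POLG and TWNK, fell 1.19-fold (adjusted p = 0.0054, edgeR). MGME1, an exonuclease that trims mitochondrial DNA ends, rose 2.18-fold, with 136 ± 2.26 CPM in doxorubicin cells and 62.5 ± 1.84 CPM in DMSO cells (adjusted p = 1.5e-10, edgeR). Several genes of this group, UNG, FEN1, LIG3, DNA2 and APEX1 among them, also serve nuclear DNA. The rising count was 2 with no filter, without DMSO library 1 and without DMSO library 2.

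Genes that supply mitochondrial nucleotides moved both ways: of 12 tested from 14, 5 rose, 6 fell and 1 was not called, with a median log2 fold change of -0.03. RRM2B, the p53-inducible subunit of ribonucleotide reductase, rose 3.96-fold, with 150.4 ± 24.8 CPM in doxorubicin cells and 38.0 ± 4.32 CPM in DMSO cells (adjusted p = 3.0e-07, edgeR). AK3, a matrix adenylate kinase, rose 2.12-fold, and the other 3 that rose were SLC25A36, SLC25A4 and DGUOK. SLC25A33, a pyrimidine nucleotide carrier, fell 1.54-fold, with 16.2 ± 0.292 CPM in doxorubicin cells and 24.9 ± 0.782 CPM in DMSO cells (adjusted p = 1.2e-05, edgeR). SUCLA2, a subunit of succinyl-CoA ligase, fell 1.45-fold.

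Genes of mitochondrial transcription and RNA processing were mixed, with 6 of 25 higher, 9 lower and 10 not called, and a median of -0.15. REXO2, an oligoribonuclease, rose 1.65-fold, with 82.8 ± 8.18 CPM in doxorubicin cells and 50.1 ± 0.670 CPM in DMSO cells (adjusted p = 3.9e-07, edgeR). PDE12, which removes poly(A) tails in mitochondria, rose 1.56-fold. ELAC2, which cuts tRNA 3′ ends, fell 1.64-fold, with 116 ± 6.16 CPM in doxorubicin cells and 189 ± 5.56 CPM in DMSO cells (adjusted p = 5.7e-08, edgeR), and PNPT1, polynucleotide phosphorylase, fell 1.52-fold. TFB1M, the rRNA methyltransferase related to TFB2M, fell 1.26-fold (adjusted p = 0.011, edgeR). The elongation factor gene TEFM was at 8.08 ± 1.13 CPM in doxorubicin cells and 9.72 ± 0.442 CPM in DMSO cells and was not called (adjusted p = 0.094, edgeR). The falling count was 5 with DESeq2, with library totals only, without DMSO library 2 and without doxorubicin library 2, and 4 without doxorubicin library 3.

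Known targets of PGC-1 and ERR rose more often than they fell: of 18 tested from 20, 8 rose, 4 fell and 6 were not called, with a median log2 fold change of 0.14. VEGFA, the angiogenic factor, rose 5.15-fold, with 223 ± 37.1 CPM in doxorubicin cells and 43.3 ± 3.11 CPM in DMSO cells (adjusted p = 6.2e-09, edgeR). CPT1A, which admits fatty acids to mitochondria, rose 2.32-fold, with 27.5 ± 3.37 CPM in doxorubicin cells and 11.8 ± 3.37 CPM in DMSO cells (adjusted p = 0.00011, edgeR). The mitochondrial superoxide dismutase gene SOD2 rose 1.70-fold, the fusion gene MFN2 1.43-fold and the cytochrome c gene CYCS 1.32-fold. The 4 that fell were CS, ATP5F1B, IDH3A and TOMM20. CS, citrate synthase, fell 1.99-fold, with 119 ± 7.51 CPM in doxorubicin cells and 237 ± 9.11 CPM in DMSO cells (adjusted p = 1.5e-09, edgeR), and ATP5F1B, the catalytic beta subunit of ATP synthase, fell 1.37-fold. Of the other 2 in the list, PDK4 and MB were below the filter.

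The proteins of the mitochondrial ribosome, a large nuclear-encoded output of biogenesis, were more often lower. Of 78 MRPL and MRPS genes, 39 fell, 17 rose and 22 were not called, with a median log2 fold change of -0.20 and a range of -0.83 to 1.11. MRPS28 fell 1.78-fold and MRPL19 fell 1.76-fold, with 32.3 ± 1.41 CPM in doxorubicin cells and 56.6 ± 5.21 CPM in DMSO cells for MRPL19 (adjusted p = 2.7e-07, edgeR). MRPL49 rose 2.16-fold, with 196 ± 15.1 CPM in doxorubicin cells and 90.8 ± 1.32 CPM in DMSO cells (adjusted p = 5.0e-10, edgeR), and MRPS30 rose 1.66-fold. Of the exon bases of MRPL49, 12.2% lie in exons of other genes, mostly SYVN1 on the opposite strand, and for MRPS28 the share is 35.8%.

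**Figure D5:**
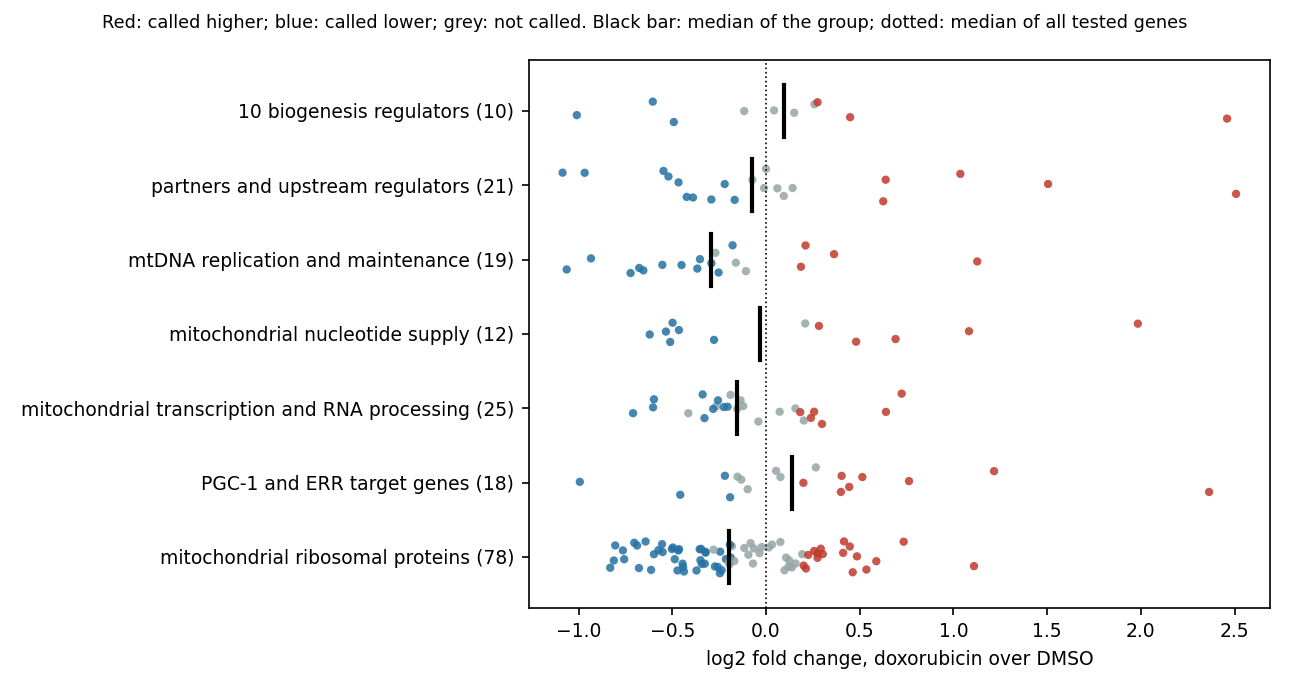
Log2 fold change of doxorubicin over DMSO (horizontal axis) for each tested gene of the 10 regulators and the 6 related groups, with the number tested in brackets, red for called higher, blue for called lower and grey for not called. The black bars are group medians, from -0.29 for mitochondrial DNA replication and maintenance to 0.14 for PGC-1 and ERR targets, and the dotted line is the median of all tested genes.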

How the data were processed

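Raw read counts per gene were deposited as one featureCounts-style table by the authors, per the file headers. Tools credited by the submitters' processing notes are STAR, SAMtools, Subread and featureCounts on GRCh38 (hg38); versions and settings are not given in the sources used here. Libraries were unstranded TruSeq v2 poly(A) libraries, per the labels' protocols, so reads in bases shared by opposite-strand genes cannot be placed by strand. Whether such reads were counted for either gene or left out is not known from the sources used here. Exon length is the length column of the same table as deposited. Symbols came from a gene name table (57717 of 58299 IDs) and GENCODE release 29, and 0 columns of other samples were present.

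The test was edgeR 4.0.16 under R 4.3.3 (filterByExpr defaults, minimum count 10 and minimum total 15, TMM, robust quasi-likelihood F test, two-sided, Benjamini-Hochberg over 15358 genes). SE was taken as |log2 fold change|/sqrt(F), an approximation. Scaled CPM values use the TMM factors. The procedure was run on simulated data, where 80.6% of 67 genes changed 1.5-fold and 97% of 67 genes changed 2-fold were called. Of 15074 unchanged genes, 4 were called. Far fewer genes changed there than in the real data, and none had counts as low as PPARGC1A, so such genes are not covered. Libraries of one treatment differed beyond sampling noise (chi-square over degrees of freedom 2.82 to 9.39), so each library counted as 1 replicate. Library 1 to 3 is the replicate number of the labels.

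The regulators and gene groups were chosen with earlier results of these data known, and the promoter motifs after the sequences were seen. All 10 regulators are named; each other group contributes its 2 largest rises and falls (average log2 CPM 1 or more), and further genes were named after their values were seen. One group member was matched through a synonym. Alternatives were DESeq2 1.42.0, other scalings and filters, a replicate block, each library left out, and glmTreat.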

Additional observations from a re-analysis of the deposited data

How the results depend on the processing

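The calls of the 10 regulators (3 higher, 3 lower) were the same in number with DESeq2, RLE scaling, upper-quartile scaling, library totals only, the 50 most abundant genes left out, no filter and the replicate block, and with each library left out in turn (3 and 3 each time). The 3 higher include PPARGC1A, which entered the main fit through its doxorubicin libraries only, so its repeated calls were not taken as support. Requiring at least 1 CPM in 3 libraries removed PPARGC1A from the test and left 2 higher. Against a 1.5-fold change (glmTreat), a stricter null, 1 regulator was higher and 1 lower, and 2418 of all genes were higher and 1470 lower. Genes of the 6 groups stood at 12 higher and 9 lower, against 45 and 79 in the main fit. Falls thus no longer outnumbered rises over these groups. Mitochondrial ribosomal genes were at 2 higher and 3 lower, mitochondrial DNA replication and maintenance at 1 and 2, and PGC-1 and ERR targets at 3 and 1. ESRRA (0.45), TFAM (0.28), POLG (-0.60) and POLRMT (-0.49) then lost their calls. POLG2, not called, had a log2 fold change of 0.04, which ranged from -0.02088 to 0.08306 with each library left out and reversed only without DMSO replicate 1. Over alternatives other than glmTreat, adjusted p ranged from 2.8e-06 to 0.047 for ESRRA and from 0.0013 to 0.017 for TFAM. With each library left out, all tested genes called ranged from 4703 to 5005 higher and from 4519 to 4824 lower, genes of the 6 groups from 37 to 45 higher and from 69 to 80 lower (45 and 79 with all libraries), the log2 POLG2 to POLG difference from 0.60 to 0.69 and that of TFB2M to POLRMT from 0.33 to 0.40. The labels share replicate numbers, but deviations of same-numbered libraries correlated at only 0.05, -0.02 and 0.03, and 3 of 6 libraries correlated best with their own number, so the numbers were not taken to pair the libraries. With the replicate block, 5003 genes were higher and 4917 lower, the counts of regulators did not move, and the 2 ratio differences were 0.64 and 0.38. Depth limits PPARGC1A most: 3 counts correspond to 0.156 to 0.170 CPM per library, near its DMSO values.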

Other observations

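All tested genes with a RefSeq window were also sorted by the NRF1 motif, after the values were seen and with no test. The other motifs searched were not sorted in this way. Of 1290 tested genes whose window held the NRF1 consensus on either strand, 332 (25.7%) were called higher and 528 (40.9%) lower in doxorubicin cells, with a median log2 fold change of -0.12. Of 9913 tested genes without it, 3337 (33.7%) were higher and 3359 (33.9%) lower, with a median of -0.01. Calls of at least 2-fold were 75 higher and 56 lower among the 1290 with the consensus. Among the 9913 without it they were 1381 higher and 637 lower. The larger share of falls with the consensus was thus not seen among changes of at least 2-fold. The median GC content of the windows was 67.3% with the motif and 65.0% without it, and its part in the difference was not tested. Binding of NRF1 was not measured, and a part of the NRF1 fall in these values was not tested.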
